A study of Mus musculus with 26 samples.

Results

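F5 thymocytes at late positive selection were compared with F5 mature CD8 single positive (CD8SP) thymocytes, the last step of the 3 stages sorted in this line. The comparison rests on 6 of the 26 RNA-seq libraries of the series, 3 per group, and on the 16372 of 46517 gene symbols that had a normalized count of at least 10 in at least 2 libraries of the series. Late cells were sorted as CD4+CD8+ thymocytes negative for CXCR4 and positive for CCR7. Mature cells carried the same chemokine receptor gate and had lost surface CD4. Both groups came from the thymus of F5tg Rag1KO mice (strain C57/BL6 in the labels), and the study used mice of 3 to 10 weeks. The F5 transgene gives a single MHC class I restricted TCR, and without Rag1 no endogenous receptor genes are rearranged, so both groups stand for 1 T cell clonotype. The series also holds the early stage of F5 (CXCR4+CCR7-, 3 libraries), used here for levels only, and the same stages of OT-1 Rag2-/- thymocytes and of TG6tg H2b/d thymocytes, whose strain is labelled C57/BL6 x B6.C-H2d/bByJ. The study names no Rag deletion for the TG6 mice of its RNA-seq. Between F5 and TG6 the TCR transgene, Rag genotype and MHC haplotype therefore cannot be told apart.

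Positive selection rescues thymocytes whose TCR binds self peptide on MHC weakly, and MHC class I restricted cells then silence Cd4 and keep Cd8. In the course of this step the cells exchange CXCR4, which holds them in the cortex, for CCR7, which leads them to the medulla. Medullary cells mature further, raise the transcription factor KLF2 and its target, the sphingosine 1-phosphate receptor S1PR1, and leave the thymus through it. The comparison asks which transcripts separate cells that still carry both coreceptors from cells of the same clonotype that completed the CD8 lineage choice.

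Values are the deposited normalized counts. A log2 change is the difference of mean log2(value + 1), mature minus late, so that a positive value means higher in mature cells and low genes appear to change less than their counts do. Tests are limma adjusted p-values over all 16372 genes, with a gene called under 0.05. The totals of the 6 libraries lay between 16467826 and 17686398 normalized counts. The study calls the replicates biological, but nothing in the labels states that they came from separate mice. The p-values rest on the spread between replicates within the groups of all 26 libraries, not of these 6 alone. That spread may be technical in part.

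Rag1, the gene disrupted in these mice, was read in every library. Its late values were 62.3, 1658 and 109 normalized counts in replicates 1, 2 and 3, and its mature values were 704, 2698 and 1896, against 10835 to 16266 at the early stage. The late replicate 2 lay above the mature replicate 1, so the groups overlapped. The log2 change was 2.76 (SE 0.88, adjusted p = 0.029), and the call was lost in 7 of 19 alternative settings (adjusted p up to 0.24), among them those without mature replicate 2 or 3 or late replicate 1 or 3. A gene-level count does not tell an intact transcript from one of a disrupted allele, so Rag1 does not check the genotype.

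Among the sorted markers Cd4, on which the gates differ, changed most. Cd4 (chromosome 6, 124864692 to 124888221) had 5160, 10664 and 7981 normalized counts in late and 216, 350 and 211 in mature cells, a 30.6-fold fall. Every mature library lay far below every late library, and the log2 change was −4.91 (SE 0.50, adjusted p = 6.2e-07). Cd8a was measured at 23002 ± 1802 (SD, n = 3) in late and 26856 ± 2751 in mature cells (adjusted p = 0.22). Cd8b1, the CD8 beta chain, rose from 12006 ± 1343 to 16420 ± 1589 (log2 change 0.45, SE 0.15, adjusted p = 0.03), a call that was lost in 9 of 19 alternatives (adjusted p up to 0.11), among them those without mature replicate 2 or 3 or late replicate 1 or 3. Ccr7 and Cxcr4, on which both groups were gated alike, had log2 changes of 0.58 (adjusted p = 0.27) and 0.62 (adjusted p = 0.35). Each was higher in the mature library of all 3 same-numbered pairs, and with the replicate number as a block the adjusted p-values were 0.021 and 0.0077. In bulk samples, fewer cells with a transcript and less RNA per cell cannot be told apart.

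Markers of other cells were read in all 6 libraries, and their counts of calls stand beside 12.2% higher and 8.31% lower over all genes. Of 12 myeloid and dendritic genes, 5 were higher in mature cells and 0 lower, and their summed level was 593 to 695 normalized counts in late and 775 to 1513 in mature libraries. H2-Ab1, an MHC class II chain, had 18.2, 17.1 and 6.29 in late and 57.4, 241 and 97.8 in mature libraries, while Csf1r was at 3 or less in all 6. Of the 6 B cell genes tested, Ighm and Cd79b were higher, the summed level of the list was 3413 to 4923 against 7436 to 8964, and Pax5 was at 3 or less. The NK list summed to 12.2 to 22.4 in late and 8.79 to 20.7 in mature libraries, with 1 of 3 genes tested higher and Ncr1 and Klrb1c at 3 or less. The CD4SP list summed to 447 to 545 and 240 to 400, with 2 of 5 genes lower. The summed erythroid markers were 47.6 to 90.4 and 43.3 to 164 with no call among 5 tested, and 2 of 8 double-negative or gamma-delta markers were higher. The fibroblast and endothelium list summed to 3409 to 3577 in late and 2295 to 2621 in mature libraries, with 1 higher and 1 lower of 4 genes tested and Pdgfra, Col3a1 and Kdr at 3 or less. Thymic epithelium markers summed to 113 to 134 and 127 to 156, with 1 of 5 higher and Foxn1, Krt5 and Krt8 at 3 or less. Of 11 double-positive thymocyte markers, 4 (Rag1, Rag2, Ptcra and Cd8b1) were higher and 3 (Cd4, Cd1d1 and Themis) lower. They summed to 55281 to 72879 in late and 53158 to 66739 in mature libraries. The part of other cells in the results was not tested.

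In all, 2000 genes were higher in mature cells (12.2% of those tested) and 1361 were lower (8.31%), together 20.5%. A change of at least 1 on the log2 scale was found for 997 of the higher and 284 of the lower genes. The median log2 change over all genes tested was −0.01. Values did not overlap between groups for 16.6% of genes with mature cells higher and for 13.8% with mature cells lower. Of the 2000 higher genes, 781 had an early mean at or above the mature mean, so that their late level was the low point of the 3 stages, and 1219 had an early mean below the mature mean. Of the 1361 lower genes, 1122 had an early mean below the late mean. When only the 6 libraries compared were used, 1246 genes were called (794 or 4.85% higher, 452 or 2.76% lower), and without both libraries numbered 2, the late and the mature one, 1856 (1229 or 7.51% higher, 627 or 3.83% lower). With the replicate number as a block 2641 genes were higher (16.1%) and 2156 lower (13.2%).

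**Figure D1:**
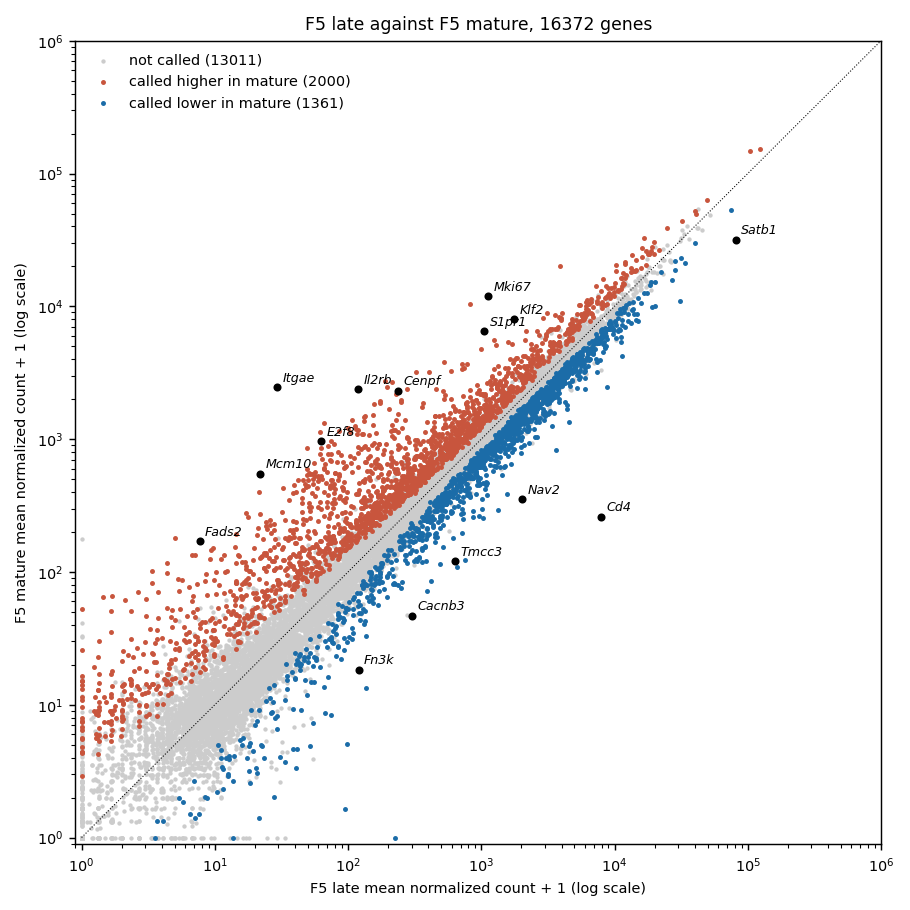
Mean normalized count + 1 of each of 16372 genes in F5 late (horizontal) and F5 mature libraries (vertical), both on log scales, with 2000 genes called higher in red, 1361 called lower in blue and the rest grey. Itgae, Il2rb and a group of cell division genes lie far above the diagonal, and Cd4 lies far below it.

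The lists showed unequal change. All 25 mitosis genes and 26 of 27 DNA replication genes were higher, with medians of 4.58 and 2.16, and no list of cytosolic, mitochondrial or respiratory genes held a lower call. Among the 22 lists plotted by list, lower calls were most frequent, as a share of the genes tested, in the TCR complex list (12 of 20), the Gimap family (4 of 8) and the preselection list (8 of 18). Calls in either direction were made for 5 of 26 interferon-stimulated genes, 4 of 24 cytokine receptor and STAT genes and 3 of 24 TCR signal response genes, shares below the 20.5% of all genes, and for 4 of 14 Bcl-2 family genes, a share above it.

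**Figure D2:**
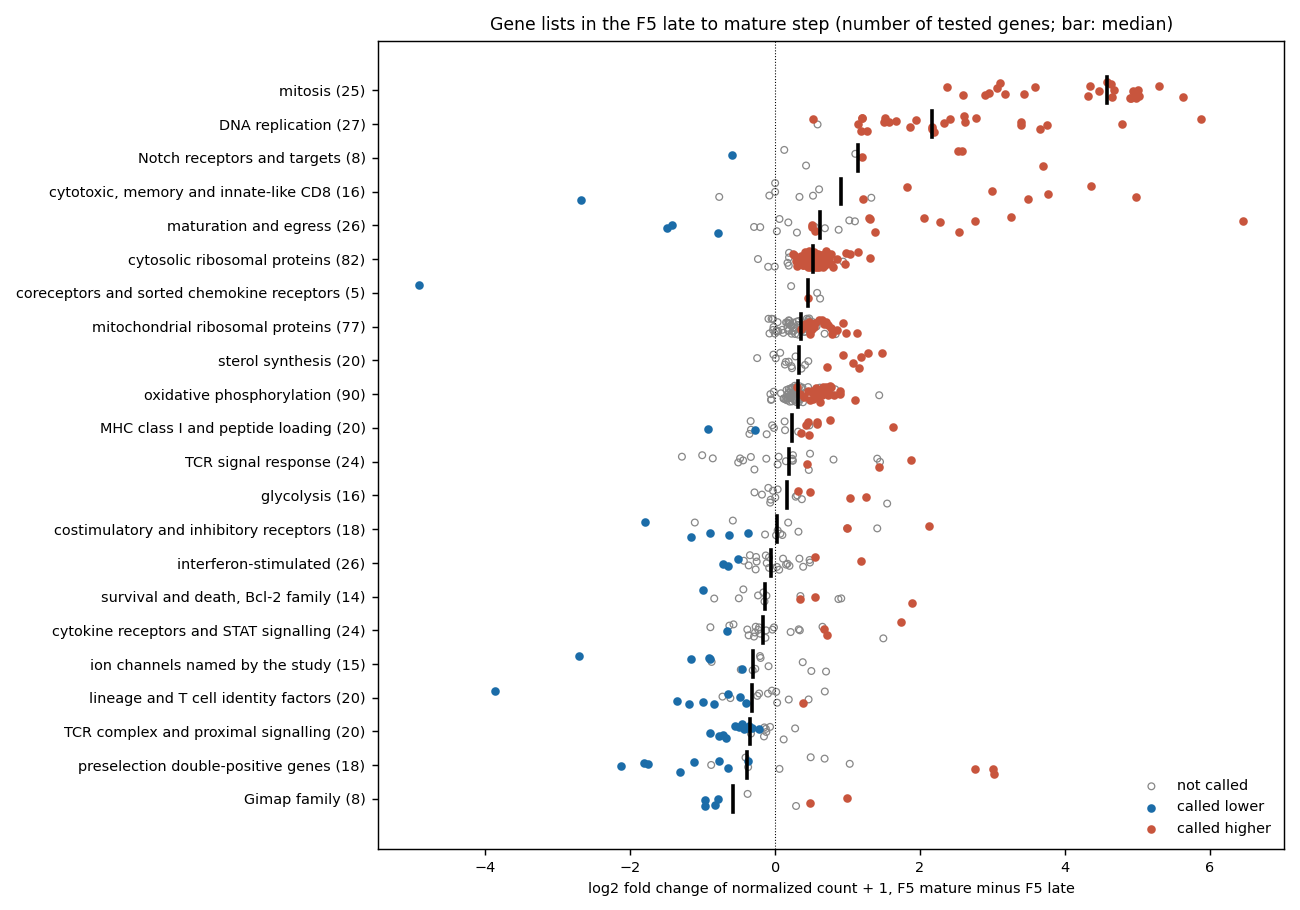
Log2 change from F5 late to F5 mature (horizontal) of each tested gene in 22 lists, with the number of genes in parentheses, filled points for called genes and a black bar at the list's median. Mitosis and DNA replication genes sit to the right of 0, and most TCR complex, lineage and preselection genes sit to the left.

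Cell division genes made up the strongest common change. Mki67, which encodes the proliferation antigen Ki-67, had 127, 3139 and 109 normalized counts in late and 7016, 17259 and 11653 in mature libraries, after 26351 to 32414 at the early stage. No mature library was as low as any late library, but the late replicate 2 was far above the other two late libraries. The log2 change was 4.99 (SE 0.77, adjusted p = 6.9e-05). Top2a, the topoisomerase that untangles sister chromatids, had 153, 2179 and 151 against 5403, 17234 and 8402 (12.5-fold, adjusted p = 3.9e-05). Birc5, the passenger complex protein survivin, went from 84.2 ± 124 to 1151 ± 665 (SD, n = 3) with an adjusted p of 4e-05. Foxm1, the factor that drives G2/M genes, rose 6.51-fold from 237 ± 193 to 1541 ± 672 (adjusted p = 1.9e-05), and the checkpoint kinase genes Ttk and Bub1b rose 13.0-fold and 7.98-fold.

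The mitosis list summed to 1339, 12991 and 1185 normalized counts in late and to 27618, 82743 and 44864 in mature libraries, against 102437 to 133039 at the early stage. Replicate 2 held the highest sum at both stages. Every one of the 25 genes had an early mean at or above its mature mean, so the mature level was below the level before the late stage. Without both libraries numbered 2 all 25 remained higher, with a median of 5.43. With only the 6 libraries in the fit 2 of the 25 were called, beside 4.85% of all genes higher. With the replicate number as a block in that fit all 25 were called, beside 1314 of 16372 genes higher.

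DNA replication genes rose with a lower median than the mitosis genes, over a range of log2 changes from 0.53 to 5.88 against 2.38 to 5.64. E2f1, a transcription factor of S-phase entry, had 64.2, 79.3 and 93.7 normalized counts in late and 485, 714 and 456 in mature libraries. The groups were far apart, and the log2 change was 2.77 (SE 0.26, adjusted p = 2.8e-07). Of the replicative helicase genes, Mcm5 rose from 743 ± 150 to 3409 ± 1151 (SD, n = 3) and Mcm3 from 714 ± 120 to 3359 ± 1206, with adjusted p-values of 7.8e-06 and 8.3e-06. Cdc6, which loads that helicase, rose 11.1-fold (adjusted p = 1.2e-05). Pcna, the polymerase clamp, had 2590, 2364 and 1497 in late and 5046, 9233 and 5113 in mature libraries, 3.01-fold higher with an adjusted p of 0.00028. Gins2 was the list's only gene not called (log2 change 0.59, adjusted p = 0.17). Of the 26 called genes, 25 had an early mean at or above the mature mean. In the fit of only 6 libraries 19 were called, beside 4.85% of all genes higher.

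**Figure D3:**
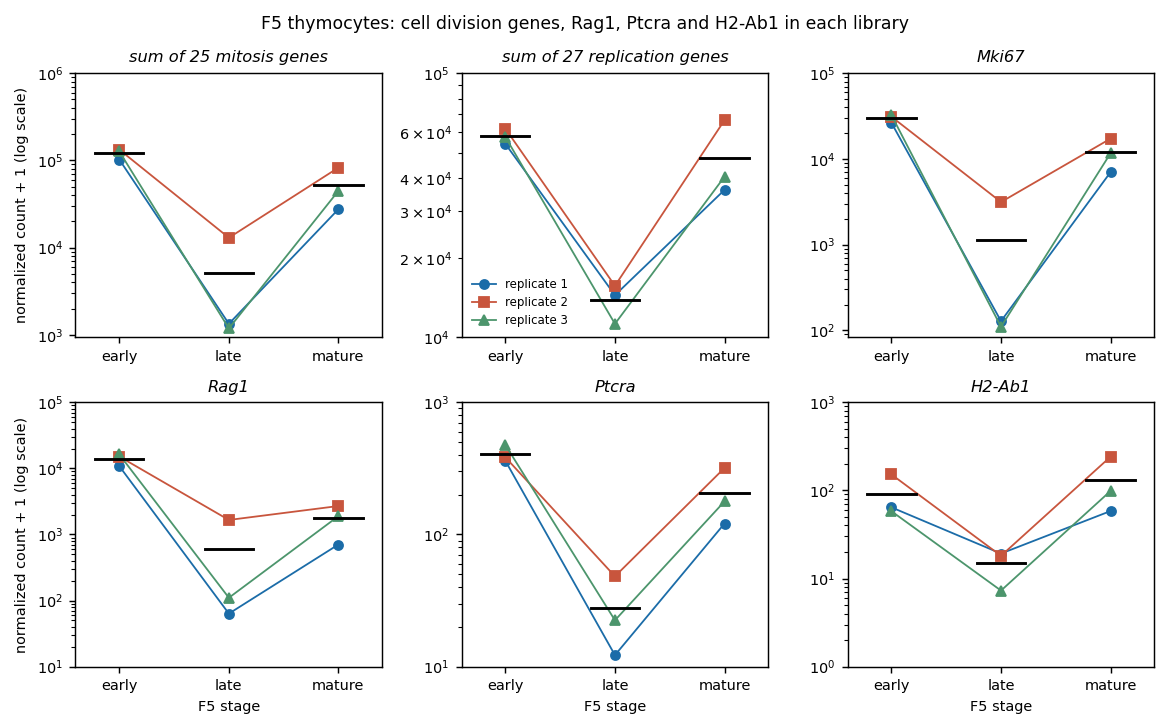
Normalized count + 1 (log scale) in each F5 library at the early, late and mature stage for the summed mitosis and DNA replication lists, Mki67, Rag1, Ptcra and H2-Ab1, with lines joining libraries of equal replicate number and a bar at the mean. The 6 panels dip at the late stage, and replicate 2 is the highest of the 3 mature libraries in each.

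The promoters of these genes carry short motifs known from cell cycle regulation. RefSeq promoter windows of 300 bases (GRCm38.p6, 250 before and 50 after the start) were found for 20 of the 25 mitosis genes. The letters TTTGAA, the core of the cell cycle homology region, were present on either strand in 14 of the 20 genes (70%) against 20.2% of all 27025 genes with a window. CCAAT, the NF-Y box, was present in 17 of 20 (85%) against 41.1%. For 22 replication genes with a window, the E2F type letters TTTCCCGC and TTTGGCGC were each present in 5 genes (22.7%), against 1.24% and 0.585% of all genes. A match describes letters and is no evidence of binding. The windows of Top2a, Ttk and Bub1b, which rose 12.5-fold, 13.0-fold and 7.98-fold, are shown 5′ to 3′ on the gene's strand with TTTGAA and CCAAT, or their reverse complements TTCAAA and ATTGG, in capitals, at chr11:99024140-99024439 (minus strand), chr9:83834439-83834738 (plus) and chr2:118597961-118598260 (plus). For the replication genes the window of Mcm3 is shown at chr1:20820263-20820562 (minus), with TTTGGCGC and the reverse complement of TTTCCCGC in capitals.
Top2a: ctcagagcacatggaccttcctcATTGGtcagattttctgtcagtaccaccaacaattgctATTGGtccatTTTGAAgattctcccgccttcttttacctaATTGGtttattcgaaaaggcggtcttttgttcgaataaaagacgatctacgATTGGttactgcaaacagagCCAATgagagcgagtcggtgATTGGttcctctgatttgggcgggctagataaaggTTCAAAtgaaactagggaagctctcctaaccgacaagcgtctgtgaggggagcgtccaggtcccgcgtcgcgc
Ttk: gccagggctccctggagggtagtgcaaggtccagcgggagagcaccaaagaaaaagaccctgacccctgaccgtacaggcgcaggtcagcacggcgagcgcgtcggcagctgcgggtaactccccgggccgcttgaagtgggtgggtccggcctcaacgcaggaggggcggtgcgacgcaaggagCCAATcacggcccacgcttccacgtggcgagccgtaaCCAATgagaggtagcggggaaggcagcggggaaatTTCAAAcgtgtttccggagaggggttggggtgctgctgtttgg
Bub1b: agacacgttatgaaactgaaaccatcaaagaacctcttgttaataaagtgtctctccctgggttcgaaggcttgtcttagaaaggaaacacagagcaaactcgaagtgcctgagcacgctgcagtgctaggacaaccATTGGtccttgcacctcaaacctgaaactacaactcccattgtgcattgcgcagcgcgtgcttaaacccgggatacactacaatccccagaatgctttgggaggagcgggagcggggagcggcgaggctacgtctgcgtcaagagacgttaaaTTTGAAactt
Mcm3: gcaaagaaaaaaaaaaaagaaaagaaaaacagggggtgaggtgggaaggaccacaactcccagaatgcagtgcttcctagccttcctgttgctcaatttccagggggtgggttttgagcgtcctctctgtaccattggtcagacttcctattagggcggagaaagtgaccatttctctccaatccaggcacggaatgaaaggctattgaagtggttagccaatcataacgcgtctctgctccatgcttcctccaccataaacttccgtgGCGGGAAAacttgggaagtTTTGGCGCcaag
With the first transcribed base counted as 0, the TTTGAA letters or their reverse complement begin at −179 and −23 in Top2a, at 7 in Ttk and at 40 in Bub1b, and the 2 E2F type matches begin at 19 and 38 in Mcm3. No matches overlap in these windows.

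Lineage factors had more lower than higher calls. Of 20 genes for lineage and T cell identity, 8 were lower, 1 was higher and 11 were not called (median −0.33). Satb1, a chromatin organizer of thymocytes, had 84081, 78048 and 81519 normalized counts in late and 34910, 29113 and 31303 in mature libraries. The replicates were close within each stage, and the log2 change was −1.36 (SE 0.10, adjusted p = 1e-08). Tox, which is needed for the CD4 lineage, fell 2.28-fold from 7342 ± 706 to 3219 ± 311 (SD, n = 3) with an adjusted p of 2.8e-07. Bcl11b, the T lineage commitment factor, fell 1.99-fold (adjusted p = 3.9e-06), Patz1, a BTB zinc finger protein, 1.57-fold (1.4e-05) and Runx1 1.8-fold (0.0004). Tcf7, which encodes TCF-1, fell from 74270 ± 2930 to 53085 ± 1139 (adjusted p = 0.0025, lost in 3 of 19 alternatives).

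The genes that settle the choice between CD4 and CD8 differed in their behaviour. Zbtb7b, which encodes the CD4 lineage factor ThPOK, was low in late cells at 12.3, 13.5 and 35.2 normalized counts and was 0, 1.21 and 0 in mature cells (adjusted p = 0.00036). Runx3, the CD8 lineage factor, had 4394, 3174 and 3873 in late and 5860, 2384 and 3988 in mature libraries, with a log2 change of 0.01 (SE 0.31, adjusted p = 0.99). The mature libraries of Runx3 spread on both sides of the late ones. Its early mean was below both, with libraries of 512 to 1013. Gata3 had 1139 ± 152 and 745 ± 128 (SD, n = 3, adjusted p = 0.11). Ikzf1, the lymphoid factor Ikaros, was the only higher gene of the list (log2 change 0.39, adjusted p = 0.0011).

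Genes of maturation and egress rose in part. Of 26 genes, 12 were higher, 3 were lower and 11 were not called, with a median of 0.62, and the same counts were found without both libraries numbered 2. Itgae (chromosome 11, 73090583 to 73147446), the alpha chain of CD103 that binds E-cadherin, had 44.9, 14.1 and 25.5 normalized counts in late and 2894, 1421 and 3063 in mature libraries. It was at 13.6 to 21.3 at the early stage, and its rise in this step was 87.3-fold (log2 change 6.46, SE 0.44, adjusted p = 5e-09). Itgb7, which encodes the beta chain that pairs with it, rose 2.49-fold from 2619 ± 313 to 6530 ± 940 (adjusted p = 1.4e-05).

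S1pr1 (chromosome 3, 115710433 to 115715072), the egress receptor, had 1893, 657 and 612 in late and 9453, 4457 and 5592 in mature libraries. Its log2 change was 2.76 (SE 0.43, adjusted p = 8e-05), with replicate 1 the highest at every stage. Klf2 had 3936, 731 and 640 against 13763, 4344 and 5985, with the same order of replicate 1 (log2 change 2.53, adjusted p = 0.00086). Its call was lost in 2 of 19 alternatives, the fits of only the 6 libraries and of only the 9 F5 libraries, and with the replicate block its adjusted p was 3.5e-07. S1pr4, a related receptor, rose 2.45-fold (adjusted p = 7.1e-06).

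Ms4a4b and Ms4a6b, which encode tetraspan membrane proteins of mature T cells, rose 4.78-fold and 2.61-fold, and Ms4a4b had 1067, 809 and 1109 against 4861, 4817 and 4595 with a narrow spread (adjusted p = 3.5e-08). Plac8 rose 8.91-fold from 25.1 ± 18 to 223 ± 81.0 (SD, n = 3, adjusted p = 1e-06). The 3 lower genes were Ccr9, Cd44 and Slfn2. Ccr9, the receptor for the thymic chemokine CCL25, had 30076, 33572 and 29722 in late and 11196, 11099 and 10768 in mature libraries (log2 change −1.50, adjusted p = 3.5e-06). Cd44, an adhesion receptor for hyaluronan, fell from 337 ± 15.6 to 126 ± 1.82 (adjusted p = 3.6e-05), and Slfn2, a Schlafen gene of T cell quiescence, fell from 4788 ± 244 to 2757 ± 31.5 (adjusted p = 0.00021). Il7r, Cd24a and Cd69 were not called, with adjusted p-values of 0.81, 0.69 and 0.32.

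**Figure D4:**
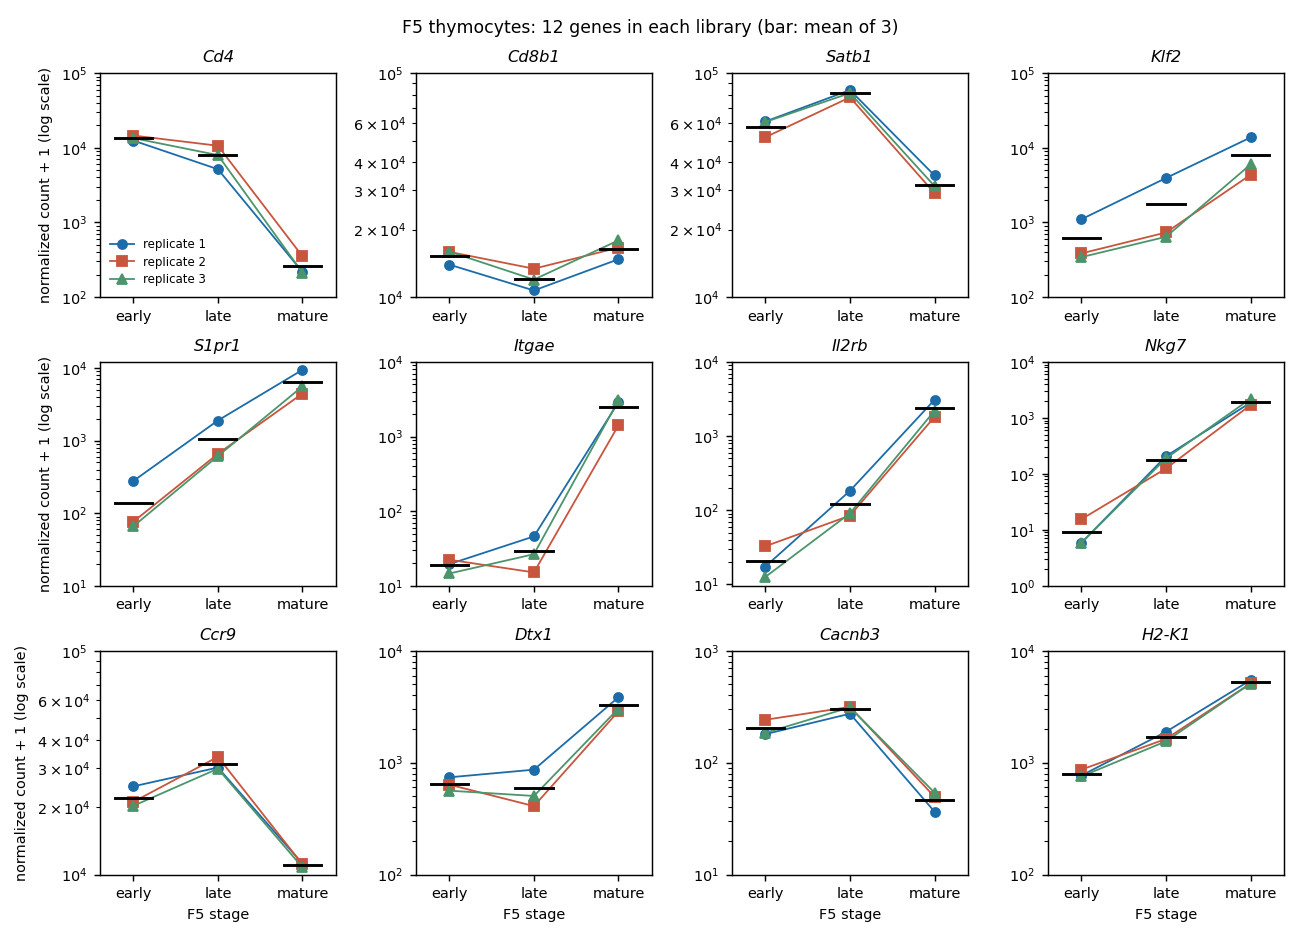
Normalized count + 1 (log scale) of 12 genes in each F5 library at the early, late and mature stage, with lines joining libraries of equal replicate number and a bar at the mean of 3. Itgae, Il2rb, Nkg7, S1pr1, Klf2 and H2-K1 rise from late to mature, while Cd4, Satb1, Ccr9 and Cacnb3 fall.

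Genes of cytotoxic and memory CD8 cells were raised in part. Of the 16 genes tested of 20, 7 were higher and 1 lower, with a median of 0.91. Il2rb (chromosome 15, 78479256 to 78495271), the beta chain of the IL-2 and IL-15 receptors, had 182, 83.6 and 90.0 in late and 3089, 1820 and 2200 in mature libraries. This 20.0-fold rise followed early values of 11.6 to 31.7 (log2 change 4.37, SE 0.30, adjusted p = 5e-09). Nkg7, a granule membrane protein, rose from 206, 124 and 189 to 1882, 1704 and 2204 (log2 change 3.50, adjusted p = 8.6e-07). Klrd1, which encodes the NK receptor chain CD94, was at 0, 1.67 and 1.69 in late and at 71.6, 47.8 and 62.8 in mature libraries (adjusted p = 9e-07).

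Gzma, a granzyme, had 39.8, 105 and 35.7 in late and 478, 1073 and 777 in mature libraries, but 532 to 725 at the early stage (log2 change 3.77, adjusted p = 2.7e-05). Its mature values overlapped those of the early stage, whereas those of Il2rb did not. Ctsw, a protease of cytotoxic cells, rose 2.3-fold and Crtam, an adhesion molecule of activated CD8 cells, 3.61-fold. Tbx21, which encodes T-bet, stayed low, at 0, 2.01 and 0 against 7.08, 16.1 and 10 (adjusted p = 0.0024), and its relative Eomes had a mean of 8.77 ± 4.05 and 4.72 ± 2.13 (SD, n = 3, adjusted p = 0.4). Prf1, the pore-forming perforin gene, had a log2 change of −0.08 (adjusted p = 0.85). Gzmb, Gzmk, Ccl5, Klrk1, Klrc1, Xcl1, Ifng and Zbtb16 were at 3 or less in all 6 libraries. Fasl was the only lower gene, at 28.7, 4.05 and 19.1 against 2.45, 2.29 and 0 (adjusted p = 0.014), a call that was lost in 5 of 18 alternatives (adjusted p up to 0.11), among them those without mature replicate 3 or late replicate 1 or 3.

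Of 24 cytokine receptor and STAT genes, 3 were higher and 1 lower (median −0.17), the higher share being near the 12.2% of all genes. Il6ra, the IL-6 receptor, rose 3.37-fold from 238, 167 and 176 to 802, 508 and 649 (adjusted p = 7.6e-05), Ifnar2, a type I interferon receptor chain, rose 1.61-fold (adjusted p = 0.00049) and Il21r, the IL-21 receptor, 1.67-fold (adjusted p = 0.012). The call of Il21r was lost in 4 of 19 alternatives (adjusted p up to 0.081), among them those without mature replicate 1 or late replicate 3. Stat5b, a mediator of common gamma chain cytokines, fell 1.58-fold from 10787 ± 419 to 6807 ± 602 (SD, n = 3, adjusted p = 1.5e-05). With the replicate block 4 genes of the list were higher and 8 lower, beside 16.1% and 13.2% of all genes. With the block in a fit of only the 6 libraries 1 was higher and 3 lower, beside 1314 and 944 of 16372 genes.

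TCR signalling genes fell where they were called. Of the 20 genes of the TCR complex and its proximal signalling, 12 were lower, 0 were higher and 8 were not called, with a median of −0.34. Themis, a TCR signalling protein of developing thymocytes, had 11730, 12126 and 12169 normalized counts in late and 6901, 6700 and 7380 in mature libraries. The groups were tight and separate, with a log2 change of −0.78 (SE 0.08, adjusted p = 9.8e-07). Trbc1, a TCR beta constant segment, fell 1.61-fold from 33993 ± 2831 to 21124 ± 602 (SD, n = 3, adjusted p = 1.2e-05), while reads of Trbc1 and its near copy Trbc2 may be shared. Lcp2, the adaptor SLP-76, fell 1.66-fold, the kinase gene Lck 1.37-fold and the Ras activator gene Rasgrp1 1.4-fold, with adjusted p-values of 0.00063, 0.00012 and 0.00088. Cd28, the costimulatory receptor, fell 1.83-fold (adjusted p = 0.004), with replicate 1 highest at both stages. Calls were lost in 2 of 19 alternatives for Cd28 (adjusted p up to 0.14) and Lck (0.059) and in 1 for Rasgrp1 (0.081). The fit of only the 6 libraries was among these for each gene. Zap70 and Trac had log2 changes of −0.15 and −0.33 and were not called (adjusted p = 0.24 and 0.098), and Trac was called with the replicate block (adjusted p = 0.019). The list held 8 lower genes without both libraries numbered 2, and 4 with only the 6 libraries, beside 3.83% and 2.76% of all genes.

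Among 24 genes that respond to TCR signals, 3 were higher, a share near the 12.2% of all genes, and none was lower (median 0.19). Myc, a driver of cell growth, rose 3.85-fold from 221, 263 and 225 to 561, 1172 and 999 (log2 change 1.88, adjusted p = 0.00048). Egr3, an early growth response factor, rose 2.87-fold (adjusted p = 0.016) and Cd6, a receptor that tunes TCR signals, 1.34-fold (adjusted p = 0.0069). The call of Egr3 was lost in 5 of 19 alternatives (adjusted p up to 0.12), among them those without mature replicate 3 or late replicate 1 or 2, and that of Cd6 in 4 (up to 0.16), among them that without late replicate 3. Replicate 1 was high for several immediate early genes at each stage. Dusp5, an ERK phosphatase, had 18028, 2990 and 2875 in late and 7468, 1148 and 1244 in mature libraries, lower in each same-numbered pair but with overlapping groups (adjusted p = 0.28, with the replicate block 0.0012). Nr4a1 and Junb showed the same order, with log2 changes of −0.51 and −0.86 (adjusted p = 0.68 and 0.17, with the block 0.0489 and 0.00043). With the block the list held 6 higher and 5 lower genes, beside 16.1% and 13.2% of all genes. With the block in a fit of only the 6 libraries it held 2 and 3, beside 1314 and 944 of 16372 genes. Cd5, a negative regulator whose level tracks self-reactivity, was measured at 3151 ± 1388 and 4149 ± 781 (SD, n = 3, adjusted p = 0.081, with the block 0.012).

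In the preselection list more of the called genes fell than rose. Of 18 genes typical of CD4+CD8+ thymocytes before selection, 8 were lower and 3 were higher (median −0.39), beside 8.31% and 12.2% of all genes. Plxnd1, a semaphorin receptor, had 3977, 4096 and 2775 in late and 941, 801 and 724 in mature libraries, after 6312 to 7237 at the early stage (log2 change −2.12, SE 0.21, adjusted p = 3.8e-07). Spo11, known as the meiotic recombination nuclease gene, fell 3.37-fold (adjusted p = 1.8e-07) and Ets2, an ETS factor, 2.51-fold (adjusted p = 4.9e-05). The 3 higher genes were Rag1, Rag2 and Ptcra, all of the receptor assembly programme of immature thymocytes. None of the 3 is in the study's preselection signature, from which it left out Rag1 and Rag2. All lower genes of the list but Cd1d1 are in that signature. Ptcra, the pre-TCR alpha chain, had 11.2, 47.2 and 21.4 in late and 120, 318 and 177 in mature libraries, against 360 to 475 at the early stage (log2 change 3.01, SE 0.60, adjusted p = 0.00091). Rag2 had 1.54, 122 and 7.71 against 32.2, 269 and 162, overlapping as Rag1 did (adjusted p = 0.036, up to 0.28 and not called without mature replicate 2 or 3 or late replicate 1 or 3). Replicate 2 was highest for the 3 genes at the late and the mature stage, as for the mitosis sum, and the part of cells of another stage in these values was not tested. Dntt, which encodes terminal transferase, had 4011 ± 1048 and 5879 ± 2521 (SD, n = 3, adjusted p = 0.51).

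Of 20 genes for MHC class I and peptide loading, 8 were higher and 2 lower (median 0.23), beside 12.2% and 8.31% of all genes. H2-K1, a class I heavy chain, rose 3.09-fold from 1888, 1631 and 1553 to 5469, 5111 and 5100 (adjusted p = 3.8e-07), after 752 to 866 at the early stage. Psmb8 and Psmb10, of the immunoproteasome, each rose 1.49-fold (adjusted p = 0.00091 and 0.00017), and Erap1, a peptide trimming enzyme, rose 1.35-fold. B2m, the class I light chain, had 6162 ± 212 and 8561 ± 505 (SD, n = 3) with no overlap and a log2 change of 0.47 (adjusted p = 0.19, with the replicate block 0.00081). Class I genes are similar in sequence, so their reads may be shared between copies. The list held 5 higher and 0 lower genes without both libraries numbered 2, beside 7.51% and 3.83% of all genes. With the replicate block it held 9 higher and 4 lower, beside 16.1% and 13.2%.

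Of 26 interferon-stimulated genes, 2 were higher and 3 lower (median −0.05). Bst2, the antiviral factor tetherin, rose 2.34-fold from 91.9, 85.3 and 77.4 to 161, 257 and 178 (adjusted p = 3e-05), and Irf1 rose 1.47-fold (adjusted p = 0.0472, lost in 10 of 19 alternatives, among them those without any 1 of the 6 libraries, and up to 0.24). The GTPase genes Igtp and Gbp2 and the nucleic acid sensor gene Zbp1 fell 1.64-fold, 1.56-fold and 1.43-fold. Their calls were lost in 4, 5 and 9 of 19 alternatives, with adjusted p-values up to 0.072, 0.095 and 0.15. The libraries whose omission ended a call were mature replicate 1 and late replicate 2 for each of the 3 genes, late replicate 3 for Gbp2 and Zbp1, and mature replicate 2 and late replicate 1 for Zbp1. No gene of the list was lower without both libraries numbered 2. The letters GAAANNGAA of the interferon response element were present in the windows of 12 of 20 genes of the list (60%), against 9.76% of all genes. In the Bcl-2 family, 3 of 14 genes were higher and 1 was lower. Bid, a death agonist, had 137, 148 and 104 in late and 475, 479 and 480 in mature libraries (log2 change 1.89, SE 0.23, adjusted p = 6.5e-06), near its early level of 554 to 639. Bak1 and Bax, the pore-forming members, rose 1.47-fold and 1.26-fold. The call of Bak1 was lost in 6 of 19 alternatives (adjusted p up to 0.13), among them those without mature replicate 2 or 3 or late replicate 1 or 3, and that of Bax in 10 of 19 (up to 0.24), among them those without mature replicate 1 or 2 or late replicate 2 or 3. Bcl2l11, which encodes BIM, fell 1.94-fold (adjusted p = 0.049, lost in 11 of 19 alternatives and up to 0.23, among them those without mature replicate 2 or 3 or late replicate 1 or 3). Bcl2 had a log2 change of 0.35 (adjusted p = 0.18).

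Among the Notch genes, 1 receptor gene and several targets rose. Dtx1, the Notch target Deltex 1, had 865, 408 and 503 in late and 3848, 2883 and 3049 in mature libraries, 5.51-fold higher (log2 change 2.52, SE 0.20, adjusted p = 3.5e-08). Notch3 rose 2.29-fold from 319 ± 20.1 to 732 ± 52.1 (SD, n = 3, adjusted p = 0.00063), and Heyl was at 1.71, 5.04 and 0 against 41.5, 51.1 and 15.2 (adjusted p = 0.004). Hes1, a further target, rose 5.07-fold (adjusted p = 0.032), a call that was lost in 10 of 19 alternatives (adjusted p up to 0.19), among them those without mature replicate 1 or 2 or late replicate 2 or 3. Rbpj, the DNA-binding partner of Notch, fell 1.51-fold with an adjusted p of 8.6e-05, and Notch1 had a log2 change of 0.43 (adjusted p = 0.34). The target Nrarp had a log2 change of 1.11 and was not called. In all 4 of the 8 genes were higher and 1 was lower (median 1.15).

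Of 18 costimulatory and inhibitory receptor genes tested, 2 were higher and 5 lower (median 0.02), the higher share being near the 12.2% of all genes and the lower one above 8.31%. Cd160, a ligand-binding receptor of CD8 and NK cells, rose 4.34-fold from 83.6, 51.5 and 92.9 to 269, 309 and 411 (adjusted p = 7.8e-05), and Slamf6 rose 1.97-fold (adjusted p = 0.00082). Slamf1, of the same SLAM family, fell 2.15-fold (adjusted p = 0.00017), Cd27, a TNF receptor family member, fell 1.57-fold (adjusted p = 0.00063) and Cd2, an adhesion receptor, fell 1.29-fold (adjusted p = 0.016). Lag3, an inhibitory receptor that binds MHC class II, had 61.3, 155 and 61.1 against 17.2, 63.7 and 11.1, with replicate 2 highest at both stages (adjusted p = 0.018). Its call was lost in 5 of 19 alternatives (adjusted p up to 0.19), among them those without mature replicate 1 or 3 or late replicate 2, and that of Cd2 in 3 (up to 0.11), among them that without late replicate 2.

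Ion channel genes fell where they were called. None of 15 genes that the study singled out was higher and 5 were lower (median −0.31). The study chose its ion channel genes on these samples, so the list is not independent evidence of a direction. Cacnb3, a beta subunit of voltage-gated calcium channels, had 273, 314 and 311 in late and 35.5, 48.6 and 53.0 in mature libraries, 6.55-fold lower (log2 change −2.70, SE 0.23, adjusted p = 5.2e-08). The potassium channel genes Kcnh3 and Kcnh2 fell 2.25-fold and 1.87-fold (adjusted p = 9.7e-05 and 0.00087), and Cacna1e and Clcn2 fell with adjusted p-values of 0.0474 and 0.0484. The call of Cacna1e was lost in 11 of 19 alternatives (adjusted p up to 0.55), among them those without replicate 2 or 3 of either stage, and that of Clcn2 in 12 of 19 (up to 0.32), among them those without any 1 library but late replicate 1. Kcna3, the Kv1.3 channel of T cells, had a log2 change of −0.21 (adjusted p = 0.48). In the Gimap family of lymphocyte GTPases, which share a cluster on chromosome 6, 4 of 8 genes were lower and 2 higher. Gimap9 fell 1.77-fold (adjusted p = 8.9e-05) and Gimap8 1.75-fold (adjusted p = 0.00056), while Gimap5 rose 2.01-fold from 952, 716 and 717 to 1895, 1188 and 1720 (adjusted p = 0.0012).

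Ribosomal protein genes rose broadly and by little. Of 82 cytosolic ribosomal protein genes tested, 71 were higher and none was lower (median 0.53). Rplp2, of the large subunit stalk, had a log2 change of 0.78 (adjusted p = 2.8e-07). Without both libraries numbered 2, 57 were higher, and with only the 6 libraries 34, beside 7.51% and 4.85% of all genes. The genes have many pseudogenes that can share their reads. Of 77 mitochondrial ribosomal protein genes 21 were higher (median 0.36), and of 90 oxidative phosphorylation genes 28 (median 0.31), with Cox8a, a cytochrome c oxidase subunit, at 747 in late and 1594 in mature libraries on average (adjusted p = 6.4e-06). Neither list held a lower gene. The counts of these 2 lists moved with the fit. With the replicate block 39 and 45 genes were higher, against 16.1% of all genes. With the block in a fit of only the 6 libraries 7 and 3 were higher, beside 1314 of 16372 genes. Without both libraries numbered 2 only 4 and 5 were, shares below the 7.51% of all genes higher in that fit.

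Of 20 sterol synthesis genes 7 were higher, beside 12.2% of all genes, and none was lower (median 0.32), among them Hmgcs1, the HMG-CoA synthase gene, at 710 ± 48.3 and 1169 ± 129 (SD, n = 3, adjusted p = 0.00056). Idi1 and Sqle, enzymes further down the pathway, rose 2.69-fold and 2.34-fold. The call of Sqle was lost in 4 of 19 alternatives (adjusted p up to 0.094), among them that without mature replicate 2. That of Idi1 was lost in 3 (up to 0.075), among them that without both libraries numbered 2. Only 1 of the 20 was called without both libraries numbered 2, a share below the 7.51% of all genes higher in that fit. Of 16 glycolysis genes 4 were higher, beside the same 12.2%, and none was lower (median 0.16), namely Pgam1 (2.07-fold, adjusted p = 0.00068), Tpi1 (2.45-fold, 0.004), Pkm (1.24-fold, 0.012) and Pgk1 (1.4-fold, 0.039). The call of Pkm was lost in 5 of 19 alternatives (adjusted p up to 0.14), among them that without late replicate 2, and that of Pgk1 in 9 (up to 0.24), among them those without any 1 library but mature replicate 1. Without both libraries numbered 2 only 1 of the 16 was called, again below 7.51%.

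Across all genes, the 10 largest rises with no overlap between groups and a mature mean of at least 100 were those of Itgae, E2f8, Depdc1a, Espl1, Mcm10, Cenpf, Fads2, Mxd3, Shcbp1 and Pbk. Apart from Itgae, Fads2 and Mxd3, a MAX-binding repressor, these genes are known from DNA replication or mitosis. E2f8, an atypical E2F repressor, had 2.00, 183 and 0.996 in late and 541, 1556 and 798 in mature libraries (log2 change 6.41, SE 1.01, adjusted p = 8.4e-05). Espl1, the separase that opens cohesin, had 2.04, 214 and 3.06 against 499, 1509 and 868, again with late replicate 2 far above the other late libraries. Fads2, a fatty acid desaturase, had 0, 19.1 and 1.02 against 119, 227 and 161 (log2 change 5.58, adjusted p = 5.4e-05), close to its early 214 to 230.

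The 10 largest falls by the same rule were those of Rps6-ps4, Cd4, Zfp93, Fn3k, Cacnb3, Zfp467, Nav2, Chrna9, Adam12 and Tmcc3. Rps6-ps4, a processed pseudogene, had 595, 68.3 and 10.2 in late libraries and is listed at 0 in the 3 mature libraries (adjusted p = 0.021). Its log2 change ran from −9.55 to −4.13 over the alternatives, and its call was lost in 4 of 19 (adjusted p up to 0.11), with a pseudocount of 5, without mature replicate 2, without late replicate 1 and without both libraries numbered 2. Its reads could come from the ribosomal protein gene, and its values varied widely between replicates. Nav2, a cytoskeletal neuron navigator gene, had 1393, 2085 and 2561 in late and 356, 248 and 448 in mature libraries (log2 change −2.51, SE 0.19, adjusted p = 1.3e-08). Tmcc3 had 671, 555 and 683 against 118, 113 and 128 (log2 change −2.40, adjusted p = 7.4e-09). Chrna9, a nicotinic acetylcholine receptor subunit, fell 5.58-fold (adjusted p = 5.6e-07), Adam12, a metalloprotease, 6.12-fold (0.00017) and Fn3k, the fructosamine kinase, 6.85-fold (8.3e-06). The zinc finger genes Zfp93 and Zfp467 fell 11-fold and 6.24-fold. Zfp467 had late values of 623, 772 and 880 and mature values of 144, 81.0 and 139, and it was at 76.5 to 102 at the early stage, so that it peaked at the late stage.

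The step was then compared with the same step in OT-1 and TG6, as a difference of differences whose arms share no library. The F5 change differed from the OT-1 change for 138 genes (0.843% of those tested), above it for 70 (0.428%) and below it for 68 (0.415%). With libraries scaled to equal totals this split was 135 and 61, and with quantile normalization 121 and 78. It differed from the TG6 change, with 2 late TG6 libraries, for 19 genes (0.116%), above it for 4 (0.0244%) and below it for 15 (0.0916%), a split that was 5 and 11 with equal totals. The TG6 count was 4 without late TG6 replicate 2, 12 without late replicate 1 and 34 without mature TG6 replicate 3, and the OT-1 count was 81 to 226 with 1 library left out. With the replicate block the F5 change differed from the OT-1 change for 634 genes and from the TG6 change for 35. Without the block, neither contrast had a call among the mitosis or DNA replication genes, whose medians were 3.91 and 2.03 in OT-1 and 4.90 and 2.25 in TG6. A missing call does not show that the lines changed alike.

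Itgae stood out against OT-1. OT-1 late cells already had 4019, 3977 and 2934 normalized counts and mature cells had 9508, 10721 and 7570, against 28.2 ± 15.6 and 2459 ± 903 (SD, n = 3) in F5. The F5 log2 change exceeded the OT-1 change by 5.12 (SE 0.62, adjusted p = 0.00013). It exceeded the TG6 change by 3.28 (SE 0.66, adjusted p = 0.0501), with TG6 libraries of 1410 and 1173 in late and 7112 to 15118 in mature cells. Il2rb behaved alike, with 1919 ± 138 and 4059 ± 608 in OT-1 (difference 3.30, adjusted p = 0.0002) and 1199 ± 69.6 (SD, n = 2) and 2890 ± 641 (SD, n = 3) in TG6 (difference 3.12, adjusted p = 0.004). Dtx1 had 5054 ± 949 and 6902 ± 993 (SD, n = 3) in OT-1, a difference of 2.07 (adjusted p = 0.0005). In these 3 genes the lines lay far apart at the late stage, where F5 was lowest, and closer at the mature stage. Nkg7 rose more in F5 than in OT-1 by 2.73 (adjusted p = 0.0088), and for S1pr1 the difference was 2.51 (adjusted p = 0.0526).

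Other genes had a lower change in F5. Il18r1, a receptor chain for IL-18, had 363, 765 and 410 in late and 168, 151 and 136 in mature F5 libraries, whereas OT-1 went from 200, 202 and 123 to 1102, 901 and 821. The changes had opposite signs and differed by −4.12 (SE 0.47, adjusted p = 0.0001). Pcsk1, a prohormone convertase, fell in F5 from 122 ± 24.6 to 42.3 ± 12.3 and rose in OT-1 from 17.7 ± 5.06 to 168 ± 27 (SD, n = 3, difference −4.73, adjusted p = 0.00094). Ly6c2, a surface antigen of mature and memory CD8 cells, stayed at 9.81 to 16.1 in mature F5 libraries, not called against 2.97 to 9.56 in late ones (adjusted p = 0.071), while TG6 went from 6.75 and 11.1 to 332, 406 and 506 (difference −4.30, SE 0.63, adjusted p = 0.004).

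**Figure D5:**
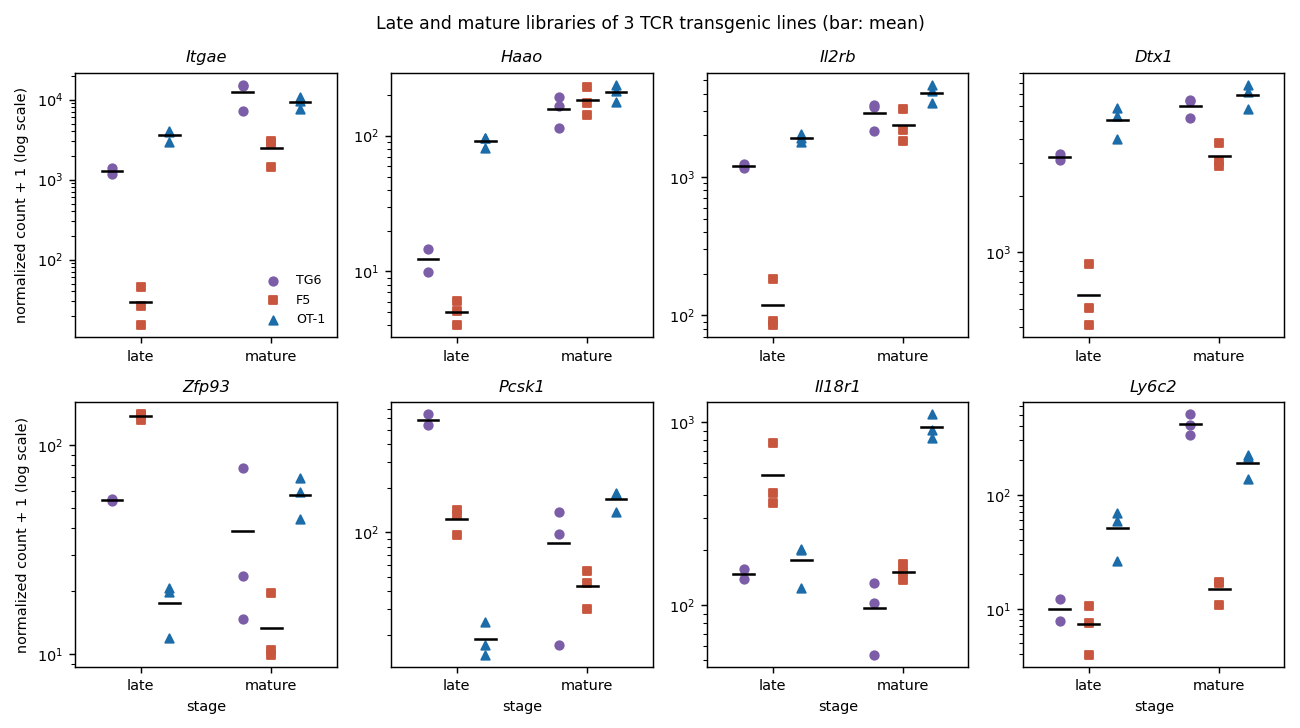
Normalized count + 1 (log scale) of 8 genes in each late and mature library of TG6, F5 and OT-1, with a bar at each group's mean. Itgae, Il2rb and Dtx1 were lowest in F5 at the late stage, Il18r1 and Pcsk1 fell in F5 and rose in OT-1, and among the mature groups F5 had the lowest Ly6c2.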

How the data were processed

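RNA from sorted F5 thymocytes, 3 libraries per stage, was measured by RNA-seq. The authors deposited signal values, namely RSEM estimates normalized across all 26 libraries by the median of ratios of DESeq2. Their processing notes name Trimmomatic 0.32, Bowtie2 2.3.2, RSEM 1.2.31 and the mm10 genome. Values were not whole reads, since 32.1 to 42.9% of values above 0 lay within 0.01 of a whole step in each library, so no count test was run. Library totals lay between 16134786 and 18944173 normalized counts over the series, and the precision of each value is given by the spread of replicates.

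Symbols with at least 10 in at least 2 of 26 libraries were fitted as log2(value + 1) with limma 3.58.1 (R 4.3.3), with 1 mean for each of 9 groups, a prior variance that follows mean expression, and 17 residual degrees of freedom. Calls were made under 0.05 after adjustment over all genes tested (Benjamini-Hochberg). Where p-values stand beside 3 libraries per group they come from this limma fit. Changes in F5 and in OT-1 or TG6 were compared as interactions in the same fit. The study's methods give tests between lines at each stage, so the fit between stages follows none of theirs.

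The labels number the replicates. Libraries of equal number deviated together within F5, with correlations of deviations from group means of 0.34, 0.242 and 0.227 between late and mature and of 0.106 to 0.34 over all 9 pairs of the 3 stages, so the numbers were taken to pair the F5 samples, and the fit with a replicate block is an alternative. The block over all libraries also paired OT-1 and TG6 libraries by number, and that pairing was not checked. Other alternatives changed the pseudocount (0.1, 5), the filter, the scaling and the libraries in the fit. Leaving out both libraries numbered 2 was chosen after seeing the data.

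Members and gene lists were chosen with earlier results of these data known. Beside list members, the text names the 10 rises and 10 falls of largest size among called genes with no overlap and a higher mean of at least 100, and 3 genes per direction for each interaction, leaving out receptor segments and predicted models. GENCODE vM21 (GRCm38) gave gene positions and RefSeq (GRCm38.p6) promoter windows. On simulated data for the F5 comparison with 16372 genes, 42 of 100 genes with a log2 change of 1 were called, 83 of 100 with a change of 2, and 5 of the 16172 genes simulated without a change. Some members of the lists are counted but not reported by name here.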

Additional observations from a re-analysis of the deposited data

Results flagged for a closer look

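The results here were set apart because the step from late to mature differed between F5 and another line in a test of the difference itself. Each difference is the F5 log2 change minus that of the other line, with a limma adjusted p-value over all genes tested.

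Against OT-1, the larger F5 rises were those of Itgae (5.12, adjusted p = 0.00013), Haao, a kynurenine pathway enzyme (3.96, adjusted p = 9.2e-05), and Adam19, a metalloprotease (3.65, adjusted p = 0.02). Haao had 5.11, 3.01 and 4.08 normalized counts in late and 173, 142 and 227 in mature F5 libraries, while OT-1 had 79.7 to 95.3 and 177 to 234. Adam19 had 8.63 to 30.8 and 145 to 587 in F5 and 1932 to 3364 and 2971 to 4557 in OT-1, and its call was lost in 8 of 23 alternatives (adjusted p up to 0.15), among them those without F5 mature replicate 1 or 3, F5 late replicate 2, OT-1 mature replicate 3, or OT-1 late replicate 1 or 2. For the 3 genes F5 was the lower line at the late stage.

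The F5 change lay below that of OT-1 for Zfp93 (−5.16, adjusted p = 0.0067), Pcsk1 (−4.73, adjusted p = 0.00094) and Il18r1 (−4.12, adjusted p = 0.0001). Zfp93 had 131 to 139 in late and 8.99 to 18.7 in mature F5 libraries and 11 to 19.7 and 43.1 to 68.3 in OT-1. The 3 genes fell in F5. Pcsk1 and Il18r1 rose in OT-1, where the log2 change of Zfp93 was 1.73 and was not called (adjusted p = 0.06).

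Against TG6, the larger F5 rises were those of Il2rb (3.12, adjusted p = 0.004) and Dtx1 (1.62, adjusted p = 0.029). The call of Dtx1 was lost in 10 of 22 alternatives (adjusted p up to 0.44), among them those without F5 mature replicate 1 or 3, F5 late replicate 2 or 3, TG6 mature replicate 3, or either late TG6 library. The calls of Il2rb and Ly6c2 were lost in the fit of only the 4 groups compared (adjusted p = 0.092 for each). The F5 change lay below that of TG6 for Rps6-ps4 (−15.87, adjusted p = 0.02), Ly6c2 (−4.30, adjusted p = 0.004) and Gpr55, a lipid receptor (−3.56, adjusted p = 0.004). Gpr55 had 8.17 to 18.3 in late and 8.09 to 12.3 in mature F5 libraries, while TG6 rose from 13.7 and 23.6 to 154 to 258. Its call was lost in 2 of 21 alternatives, the fit of only the 4 groups and that without TG6 late replicate 1 (adjusted p up to 0.23). Rps6-ps4, a pseudogene, is listed at 0 in the mature F5 and in the late TG6 libraries and had 332 to 1341 in mature TG6 libraries, and 4.14 to 1288 across the OT-1 libraries of both stages. Because of these zeros its difference depends on the pseudocount and is no bound (−22.46 with 0.1, −11.41 with 5), and the call was lost without TG6 late replicate 1 (adjusted p = 0.092) or 2 (0.14) and without both F5 libraries numbered 2 (0.074).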

How the results depend on the processing

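The lists written gene by gene and the rule for the largest changes held 181 called genes, not all of them named here. None of these reversed direction in any alternative. Of them 85 were called in every alternative that gave a value and 96 lost the call in 1 or more. The count of 3361 genes fell to 1246 with only the 2 groups compared and to 1856 without both F5 libraries numbered 2, and was 2267 to 3307 with 1 library left out. The F5 to OT-1 difference (138 genes) gave 81 to 226 with 1 library left out, namely 226 without F5 late replicate 1, 84 without F5 mature replicate 3, 86, 86 and 85 without OT-1 mature replicates 1, 2 and 3, and 81 and 90 without OT-1 late replicates 1 and 2. The F5 to TG6 difference (19 genes) gave 43 with a pseudocount of 5, 38 with no filter, 3 with only the 4 groups compared, 12 without both F5 libraries numbered 2, and 4 to 34 with 1 library left out, of which 34 was without TG6 mature replicate 3, 12 without TG6 late replicate 1 and 4 without TG6 late replicate 2. In the last 2 fits the lone late TG6 library is assumed to vary like the other groups. The cause was not tested. At an unadjusted p under 0.05 the 3 comparisons held 5192, 1996 and 884 of the 16372 genes tested. If no gene differed, a share of 0.05 would fall under that limit, and the last count is near that share.

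With the replicate block, 4797 genes were called in the F5 step, 634 in the F5 to OT-1 difference and 35 in the F5 to TG6 difference, and the paired fit of only the 2 groups called 2258. The pairing by number was checked in F5 only, not in OT-1 or TG6. Among the genes of the lists written gene by gene or picked by the rule, the block over all libraries gave 35 further calls in the F5 step. It removed 0, and the paired fit of only 2 groups gave 19 and removed 32. In the simulated data, with 3 libraries per group, a change of 1 on the log2 scale was often missed. Far fewer genes were changed there than were called here, so the share missed in the real fit is not known. Genes called lower had longer exons (median 5840 bases) than genes called higher (3460) or tested (3871), and the part of length was not tested.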

Other observations

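Gene families chosen after values were seen included several with calls only towards higher levels, beside 12.2% of all genes higher and 8.31% lower. Of 17 aminoacyl-tRNA synthetase genes, which load amino acids onto tRNA, 8 were higher in mature F5 cells and none was lower (median 0.33), with Vars at 1293, 1595 and 1119 normalized counts in late and 2939, 4437 and 3204 in mature libraries. Of 8 genes of the CCT chaperonin, which folds actin and tubulin, 7 were higher (median 0.44), of 20 nucleoporin genes 10 (median 0.40), and of 49 proteasome genes 16 (median 0.29). Without both libraries numbered 2 these counts were 4, 1, 4 and 5, beside 7.51% of all genes, and with the replicate block the proteasome count was 25, beside 16.1%. Of 57 histone cluster genes 10 were higher (median 1.03), and 4 when those libraries were left out, a share no larger than that of all genes.

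Lysine demethylase genes went the other way. None of 18 was higher and 10 were lower (median −0.42), and 8 were lower without both libraries numbered 2, where 3.83% of all genes were. Kdm1b, which removes methyl groups from histone H3 lysine 4, had 1617, 1682 and 1729 in late and 959, 1042 and 1067 in mature libraries (log2 change −0.71, limma adjusted p = 2.4e-06). Kdm6b, a demethylase of histone H3 lysine 27, had 7761, 9418 and 8644 against 5154, 4459 and 5476 (log2 change −0.78, limma adjusted p = 5.7e-05). Of 308 genes with Zfp symbols, mostly zinc finger proteins, 40 were lower and 11 higher (median −0.16), and 64 and 19 with the replicate block. Without both libraries numbered 2 the counts were 12 and 6, the lower share being near that of all genes.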
